A study of Rattus norvegicus with 6 samples.

Results

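The 9 genes followed here are the chemokines and chemokine receptors of a rat model of ischemic stroke, chosen by symbol from the 30560 genes of the deposited feature lists. They are the ligands Ccl2, Ccl7, Ccl3, Ccl4, Cx3cl1 and Cxcl12 and the receptors Ccr2, Cx3cr1 and Cxcr4. Wild-type (WT) male rats, 12 weeks old, had the right middle cerebral artery permanently occluded with a filament (MCAO) or underwent a Sham operation, and their brains were taken at 48 h. Nuclei of 4 Sham rats, 3 rats with a moderate infarct (mMCAO) and 4 rats with a severe infarct (sMCAO) were pooled by hemisphere into 6 single-nucleus RNA libraries, made with 10x Genomics 5′ chemistry. The Sham group holds the left and right hemispheres of the same rats (Sham L, Sham R), MCAO contra holds the uninjured hemispheres (mMCAO contra, sMCAO contra) and MCAO ipsi the infarcted ones (mMCAO ipsi, sMCAO ipsi). The 2 libraries of an MCAO group thus come from rats with different infarct sizes, and the p-values measure only the spread between these pooled libraries, not between rats.

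Chemokines are small secreted proteins that steer the movement of leukocytes along a gradient, and they act on G protein-coupled receptors of the target cell. Ccl2 and Ccl7 both activate Ccr2, the receptor of blood monocytes, while Ccl3 and Ccl4 attract monocytes and T cells through other receptors. Cx3cl1 (fractalkine) is a membrane-bound ligand of neurons that can be shed, and its receptor Cx3cr1 marks microglia in the brain. Cxcl12 is made by the brain's vessels and meninges and binds Cxcr4, which holds and guides leukocytes and progenitor cells.

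The libraries as deposited held 33012945 to 52513380 unique molecular identifiers (UMIs, 1 per captured RNA molecule) each. After filtering, 8232 to 13766 nuclei per library remained, 69967 in all, with a median depth of 1910 to 3247 UMIs per nucleus. The nuclei kept held 29189664 to 46996859 UMIs per library. Nuclei were clustered and the clusters named by marker genes, so that "astrocytes" below stands for astrocyte-like nuclei, and likewise for the other classes. Clusters with weak markers, or with no class clearly ahead, stayed unnamed and held 1384 to 2679 nuclei per library. Named classes could still carry markers of another class. Glutamatergic neurons were the largest named class, with 1166 to 5790 nuclei. Myeloid nuclei, the known carriers of Ccr2 and Cx3cr1, numbered only 8 and 10 in Sham L and Sham R, 203 and 126 in mMCAO contra and sMCAO contra, and 885 and 1707 in mMCAO ipsi and sMCAO ipsi. The paper names the scarcity of myeloid cells outside lesions as a limitation of its nuclei isolation. These numbers are therefore no count of the myeloid cells of the tissue. Of the cell barcodes, 67691 occurred in 1 library, 2933 in 2, 87 in 3 and 2 in 4. Levels are given as CPM, the UMIs of a gene per 1000000 UMIs of the nuclei named, and always in the order Sham L, Sham R, mMCAO contra, sMCAO contra, mMCAO ipsi, sMCAO ipsi. In microglia the markers of other GABAergic neurons summed to 1017 to 2758 CPM. The microglia markers there summed to 849 to 1244 CPM and the myeloid markers to 3182 to 5531 CPM. Such a sum can rest on 1 gene and need not mean mixed cells. In microglia of Sham R, 1 of the 8 GABAergic markers measured held all 12 UMIs, and 3 to 7 of them had UMIs in the other libraries. In oligodendrocyte precursors of Sham the GABAergic sums were 4133 and 4060 CPM, above the 3119 and 3087 CPM of their own markers.

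The 250 bases before the start of 3 members are shown because these genes gave the most divergent patterns below, with Ccl7 near 0 outside the infarcted hemisphere, Cx3cl1 present in every library, and Cxcr4 spread over several cell classes of sMCAO ipsi. The sequences are from RefSeq on the assembly GRCr8, which is not the mRatBN7.2 assembly of the counts, and they run 5′ to 3′ on the gene's strand. Capitals mark 2 motifs searched on both strands, the TATA box TATAAA and an NF-kB-like site (GGG, any 5 bases, CC). Ccl7 lies on the plus strand at chr10:67513845-67514094, Cx3cl1 on the minus strand at chr19:10242821-10243070 and Cxcr4 on the minus strand at chr13:42634289-42634538.
Ccl7: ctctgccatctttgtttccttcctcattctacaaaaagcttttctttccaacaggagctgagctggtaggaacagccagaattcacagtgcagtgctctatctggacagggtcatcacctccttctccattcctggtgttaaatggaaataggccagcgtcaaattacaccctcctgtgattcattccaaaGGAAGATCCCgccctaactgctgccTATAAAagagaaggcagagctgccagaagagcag
Cx3cl1: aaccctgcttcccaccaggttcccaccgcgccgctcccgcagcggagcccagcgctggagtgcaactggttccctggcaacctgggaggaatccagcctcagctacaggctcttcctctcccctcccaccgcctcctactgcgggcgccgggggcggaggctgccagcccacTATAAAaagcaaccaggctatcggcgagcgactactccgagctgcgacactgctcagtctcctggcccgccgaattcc
Cxcr4: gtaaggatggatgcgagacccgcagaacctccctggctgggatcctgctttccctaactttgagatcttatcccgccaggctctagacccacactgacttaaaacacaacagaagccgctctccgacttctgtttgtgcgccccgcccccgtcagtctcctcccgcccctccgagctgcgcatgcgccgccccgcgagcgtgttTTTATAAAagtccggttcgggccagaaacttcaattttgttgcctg

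The Ccl7 window held the NF-kB-like letters on the opposite strand, 59 to 50 bases before the start, and a TATA box 34 to 29 bases before it. The Cx3cl1 window held a TATA box 78 to 73 bases before the start, and the Cxcr4 window held a pair of overlapping TATA matches, one on each strand. Neither motif was found in the windows of Ccr2, Cx3cr1 and Cxcl12. Of 33469 rat promoter windows of this length, 42.3% held the NF-kB-like letters and 12.9% the TATA box, so these matches describe the windows and identify no binding site. Promoter windows of Ccl2, Ccl3 and Ccl4 are not shown.

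Over all nuclei, 5 members were higher in MCAO ipsi than in Sham: Ccl2, Ccl7, Ccr2, Cx3cr1 and Cxcl12. Ccl2, Ccl7 and Ccr2 were nearly absent from Sham, with 2, 1 and 0 UMIs in all, and Cx3cr1 was higher by a log2 fold change of 3.03. Against MCAO contra, Ccl7 and Cx3cr1 were higher over all nuclei and Cx3cl1 was lower in glutamatergic neurons. No member was called between MCAO contra and Sham. A sum over all nuclei cannot tell fewer or more cells of a type from less or more RNA per cell, so each gene is followed below in its cell classes.

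The tests were edgeR quasi-likelihood tests on UMIs summed per library, adjusted by the Benjamini-Hochberg method over all genes tested. Calls needed an adjusted p below 0.05 together with a log2 fold change of 0.6 or more in either direction. Of the 9 members, 7 had enough UMIs to be tested over all nuclei, and Ccl3 and Cxcr4 did not. The 5 members called in MCAO ipsi against Sham stand beside 13.1% of all 17040 genes called in that comparison, with 10.0% of all genes higher. The members were chosen with earlier results of these data known. Setting them beside all genes is therefore a description and no test of the set. In MCAO ipsi against MCAO contra, 2 members were called over all nuclei where 4.81% of genes were (3.87% higher), and in MCAO contra against Sham no member was called where 0.0% of genes were. The median log2 fold change of the 7 tested members was 3.03, 1.83 and 1.14 in these comparisons, and the median of all genes is not given. The value of 1.14 is poorly determined and shows no common rise. Several members had few UMIs there, 9 in MCAO contra against 2 in Sham for Ccl2 and 3 against 1 for Ccl7. In MCAO contra against Sham, Cx3cl1, Cxcl12 and Cx3cr1 had unadjusted p-values of 0.0443, 0.0117 and 0.00496 over all nuclei, and DESeq2 called 1 member, Cx3cr1. There edgeR called Cx3cr1 (1.22, adjusted p = 0.00304) and Cxcl12 (0.68, adjusted p = 0.00449) when only the libraries of these 2 groups were fitted, and both again without mMCAO ipsi or without sMCAO ipsi. The comparisons share libraries and are not independent of each other.

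These calls rest on few libraries. Without Sham L or without Sham R, 0 members remained called against Sham. Of the 5, only Cx3cr1 over all nuclei remained called without mMCAO contra or without sMCAO contra, and in the second case Ccl2 and Ccl7 in astrocytes, not tested with all 6 libraries, were called as well. Without mMCAO ipsi 9 members were called against Sham, counting every class. Against MCAO contra, 0 remained without mMCAO contra or without sMCAO contra, and 9 were called without mMCAO ipsi, in fits that take the lone sMCAO ipsi library to vary like the other groups. Since both hemispheres of a severity came from the same rats, the fit was repeated with the rat pool as a block, which raised the members called against MCAO contra from 3 to 5. The share of all genes called is not given for these alternative fits. Their counts of members therefore cannot be told apart from a change in all genes. With the block, Ccl2 (log2 fold change 6.03, adjusted p = 0.00614), Ccr2 (5.16, adjusted p = 0.0117) and Cx3cl1 over all nuclei (-0.77, adjusted p = 0.0248) passed as well, beside Ccl7 (6.10, adjusted p = 0.00332), Cx3cr1 (1.81, adjusted p = 0.00875) and the glutamatergic Cx3cl1 (-0.69, adjusted p = 0.00661).

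**Figure D1:**
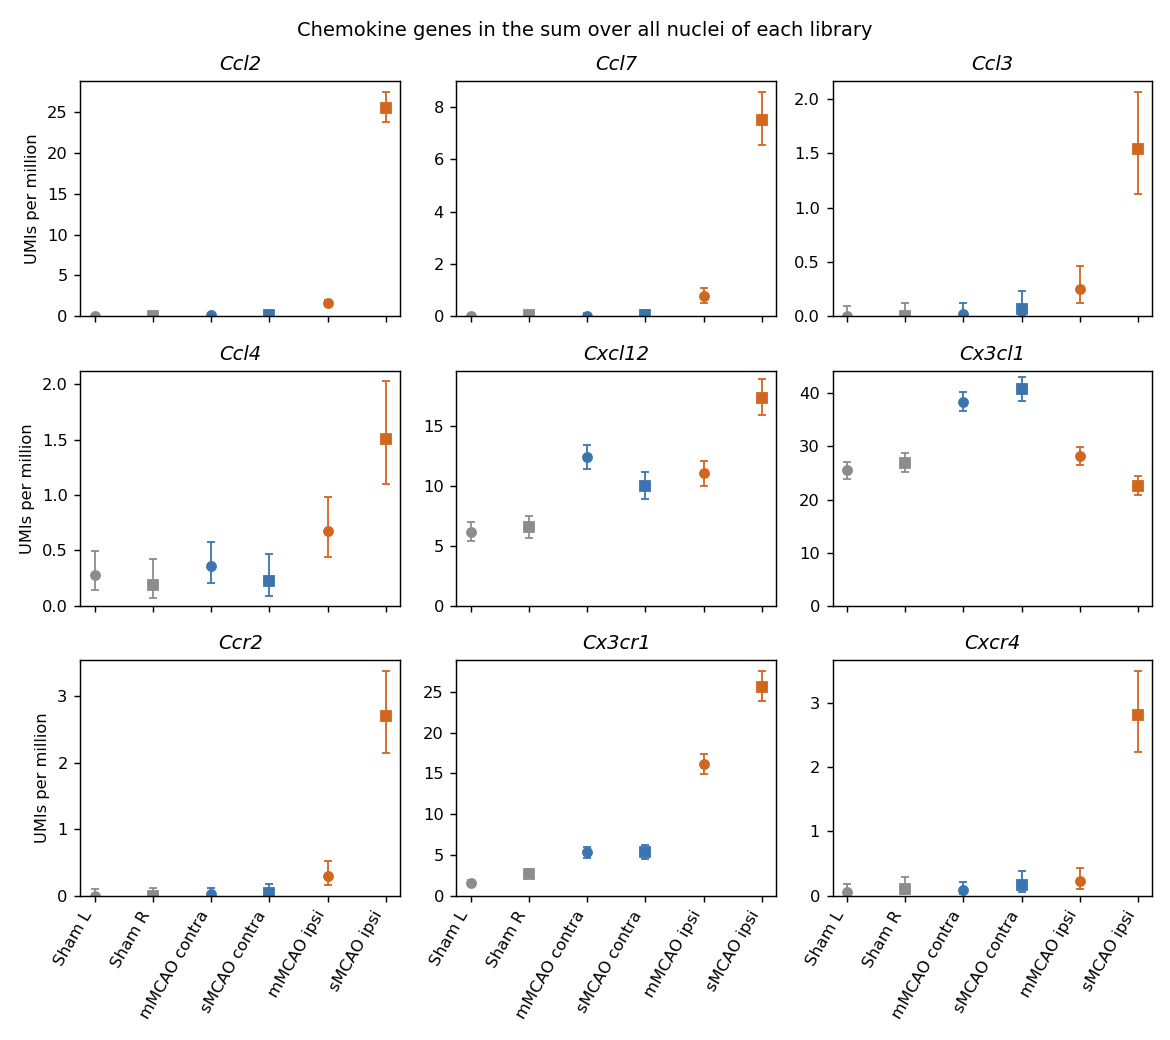
CPM of each of the 9 genes over all nuclei of the 6 libraries, 1 panel per gene with its own linear axis from 0 and bars for the exact 95% counting interval; grey is Sham, blue MCAO contra and orange MCAO ipsi. Ccl2, Ccl7, Ccl3, Ccr2 and Cxcr4 stand highest in sMCAO ipsi with mMCAO ipsi next, while Cx3cl1 is highest in the contralateral libraries at 38.3 and 40.8 CPM.

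Ccl2, the main attractant of monocytes, gave 1, 1, 6, 3, 63 and 746 UMIs over all nuclei, or 0.0253, 0.0321, 0.128, 0.0974, 1.57 and 25.6 CPM. Both ipsilateral libraries lay above the other 4, and sMCAO ipsi stood 16.3-fold above mMCAO ipsi (exact 95% interval 12.6 to 21.4 for counting error only, as for all ratios of counts below, 1 library each, no test). Pooled counts were 412-fold higher in MCAO ipsi than in Sham (114 to 3411, from 809 against 2 UMIs) and 101-fold higher than in MCAO contra (52.9 to 221). The edgeR log2 fold change was 8.36 (SE 1.74, adjusted p = 0.0304) against Sham and 6.60 (SE 1.43, adjusted p = 0.0516) against MCAO contra, so the second did not pass. With so few counts in Sham, the fitted values depend on the prior count of the fit. A Ccl2 UMI was found in 0.447% of mMCAO ipsi nuclei and 4.11% of sMCAO ipsi nuclei, with up to 28 UMIs in 1 nucleus.

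Astrocytes held the largest share of the Ccl2 UMIs in both ipsilateral libraries. They carried 0, 0, 0, 0, 17 and 428 UMIs, that is 27.0% of all Ccl2 UMIs of mMCAO ipsi and 57.4% of those of sMCAO ipsi. In mMCAO ipsi this lead was not resolved. The astrocyte share there had an interval of 16.6% to 39.7%, and the joined myeloid class held 14 UMIs (22.2%, 12.7% to 34.5%). Glutamatergic, medium spiny and other GABAergic neurons held 6, 3 and 6 of the 63 UMIs of mMCAO ipsi. No astrocyte of the 4 Sham and contralateral libraries had a Ccl2 UMI, in 248, 221, 349 and 264 nuclei. With 3 nuclei taken as the floor of a share at 0, this allows detected shares of up to 1.21%, 1.36%, 0.860% and 1.14%. These limits are no Clopper-Pearson limits and hold at median depths of 609 to 988 UMIs. They set no limit on the share of astrocytes expressing the gene. The astrocyte level was 27.6 CPM in mMCAO ipsi and 295 CPM in sMCAO ipsi, a ratio of 10.7 (6.60 to 18.5). Pooled, it was at least 25.05-fold higher in MCAO ipsi than in Sham and at least 43.2-fold higher than in MCAO contra, taking 3 UMIs over the group as the floor of a group at 0. Ccl2 did not reach the count filter of the edgeR test in astrocytes with all 6 libraries.

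A Ccl2 UMI was found in 3.17% of the astrocytes of mMCAO ipsi and 17.3% (96 nuclei) of those of sMCAO ipsi, at median depths of 1269.5 and 2197.5 UMIs. After thinning every nucleus to 500 UMIs the shares were 1.13% and 7.76%. Glutamatergic neurons, set beside them for comparison, had a UMI in 0.13% and 2.92% of nuclei at median depths of 4671 and 8579.5, and in 0% and 0.26% after thinning. The astrocyte share was therefore above that of glutamatergic neurons in both libraries at matched depth. These neurons are no clean background, since their own Ccl2 counts were 42 UMIs in MCAO ipsi, 0 in Sham and 2 in MCAO contra. The origin of these UMIs was not tested.

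The astrocytes formed 2 clusters, one (S4) led by Itih3 and Slc1a2 that held most astrocytes of Sham and MCAO contra, and one (S9) led by Gfap, Aqp4 and Tnc that held most of those of MCAO ipsi. Gfap and Vim, among the 10 leading genes of S9, are intermediate filament genes raised in reactive astrocytes. All 17 astrocytic Ccl2 UMIs of mMCAO ipsi and 426 of the 428 of sMCAO ipsi lay in S9, at 44.2 CPM in 255 nuclei and 346 CPM in 448 nuclei. In S4 of sMCAO ipsi, 2 UMIs in 106 nuclei gave 9.12 CPM, a ratio of 37.9 between the clusters (10.4 to 314). Ccl2 is itself among the 10 leading genes of S9, so this split is a description. The S9 nuclei of Sham (12 and 10) and MCAO contra (37 and 43) had no Ccl2 UMI, and these are too few nuclei to limit the level there closely. The 13 myeloid markers summed to 70 and 57 CPM in S9 of mMCAO ipsi and sMCAO ipsi, and the 8 astrocyte markers to 11372 and 12654 CPM.

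Macrophages held 7 UMIs (60.6 CPM) in mMCAO ipsi and 86 UMIs (112 CPM) in sMCAO ipsi, where they were the next source. The ratio of 1.85 between the severities had an interval (0.861 to 4.74) that includes 1. Unnamed clusters held 13 and 38 UMIs, or 20.6% and 5.09% of the Ccl2 UMIs of mMCAO ipsi and sMCAO ipsi. Microglia carried 7 and 50 UMIs (11.2 and 43.6 CPM) and the nuclei named fibroblasts 2 and 31 (9.64 and 50.3 CPM). This last class was of mixed markers, since its 8 astrocyte markers summed to 2137 to 3122 CPM and its 6 fibroblast markers to 737 to 2129 CPM, with the astrocyte sum the higher in every library. Within sMCAO ipsi the astrocyte level exceeded that of macrophages 2.63-fold (2.08 to 3.36), of microglia 6.77-fold (5.04 to 9.26) and of glutamatergic neurons 85.2-fold (60.6 to 123). The last ratio is set against a low class, since glutamatergic neurons had 3.46 CPM there. Medium spiny neurons had 3.67, other GABAergic neurons 4.88, oligodendrocyte precursors 10.1 and oligodendrocytes 16.8 CPM. In mMCAO ipsi the astrocyte to macrophage ratio was 0.456 (0.180 to 1.30), so there the order of these classes was not resolved. Macrophages exceeded microglia in both libraries, 5.41-fold (1.62 to 18.1) in mMCAO ipsi and 2.57-fold (1.79 to 3.72) in sMCAO ipsi. Outside the infarcted hemisphere, 6 of the 9 contralateral UMIs were in endothelial nuclei (5 in mMCAO contra at 33.3 CPM and 1 in sMCAO contra at 19.4 CPM), while the infarcted hemispheres gave 0 endothelial UMIs in moderate and 8 in severe MCAO.

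**Figure D2:**
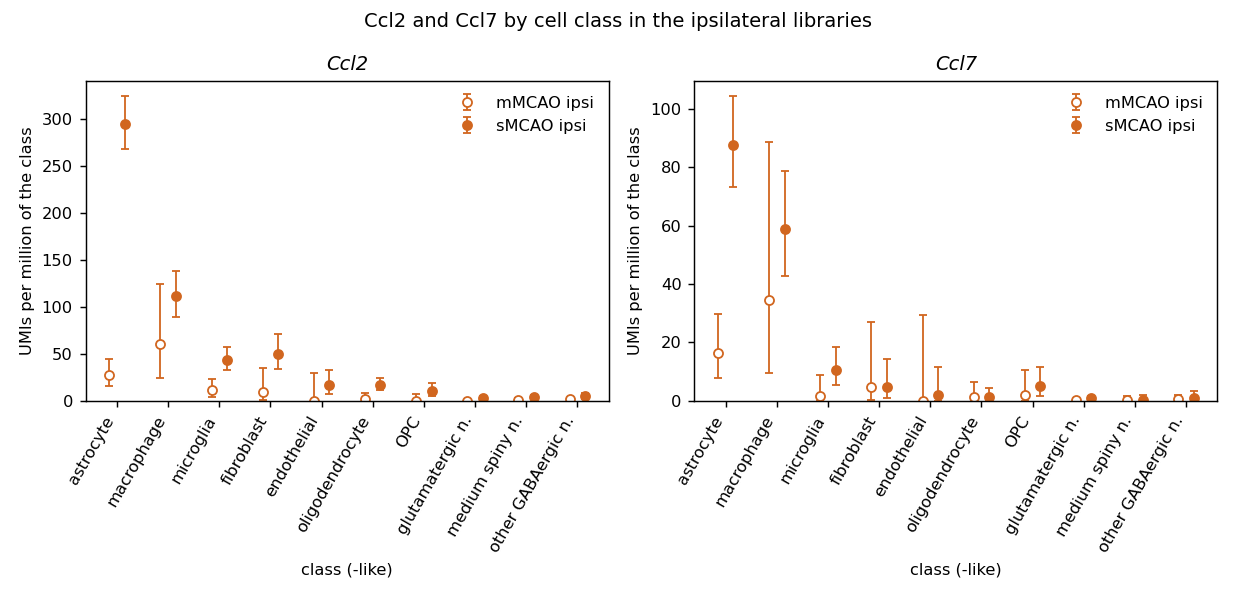
CPM of Ccl2 (left) and Ccl7 (right) by cell class in mMCAO ipsi (open points) and sMCAO ipsi (filled points), with exact 95% counting intervals on linear axes. In sMCAO ipsi astrocytes stand highest for both genes, at 295 and 87.6 CPM, followed by macrophages at 112 and 58.7 CPM.

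Ccl7, a monocyte attractant encoded close to Ccl2, gave 0, 1, 1, 2, 31 and 219 UMIs, or 0, 0.0321, 0.0213, 0.0649, 0.773 and 7.50 CPM. The ipsilateral libraries again lay above the other 4, and sMCAO ipsi exceeded mMCAO ipsi 9.71-fold (6.64 to 14.6). Pooled counts were 255-fold higher in MCAO ipsi than in Sham (45.3 to 10107, from 250 against 1 UMI) and 93.6-fold higher than in MCAO contra (31.6 to 457). Both differences were called by edgeR, at a log2 fold change of 7.51 (SE 1.58, adjusted p = 0.0307) and 6.37 (SE 1.36, adjusted p = 0.0496). The second call was lost with predicted doublets kept (adjusted p = 0.0517), with only these 2 groups fitted (adjusted p = 0.143), and when any 1 Sham or MCAO contra library was left out.

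Astrocytes also held the most Ccl7 UMIs of the named classes. They carried 10 and 127 UMIs in mMCAO ipsi and sMCAO ipsi (16.2 and 87.6 CPM) and 0 in the other 4 libraries, and every one of these UMIs lay in the cluster S9. The astrocyte level was at least 7.71-fold higher in MCAO ipsi than in Sham and at least 13.3-fold higher than in MCAO contra, and 5.39-fold higher in sMCAO ipsi than in mMCAO ipsi (2.84 to 11.5). The share of astrocytes with a UMI was 1.81% and 8.84%, or 0.68% and 3.07% thinned, against 0.08% and 0.77% of glutamatergic neurons and 0% of these thinned. Macrophages held 4 and 45 UMIs (34.6 and 58.7 CPM) and microglia 1 and 12 (1.60 and 10.5 CPM). In sMCAO ipsi, the astrocyte level was 1.49 times that of macrophages (1.05 to 2.15). It exceeded that of microglia 8.37-fold (4.63 to 16.6), and macrophages exceeded microglia 5.61-fold (2.92 to 11.6). These intervals take each UMI as independent, though 1 nucleus could hold several. With a lower limit of 1.05, the order of astrocytes and macrophages in sMCAO ipsi is therefore not settled. In mMCAO ipsi the astrocyte level was 0.469 times that of macrophages (0.135 to 2.05), so the order of these classes was not resolved there.

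Both ligands were often found in the same nucleus. Of the 96 astrocytes of sMCAO ipsi with a Ccl2 UMI, 44 also had a Ccl7 UMI (45.8%, 35.6% to 56.3%), against 1.09% (0.355% to 2.53%) of the astrocytes without Ccl2. Conversely 44 of the 49 astrocytes with Ccl7 (89.8%) had Ccl2. The nuclei with Ccl2 were deeper, with a median of 3613 against 1996.5 UMIs, and the part of depth in the overlap was not tested. In mMCAO ipsi 3 of 14 Ccl2 astrocytes had Ccl7 (21.4%), against 1.17% of the others. Macrophages (17 of 64, 26.6%, against 2.49%) and microglia (6 of 26, 23.1%, against 0.136%) of sMCAO ipsi showed the same pairing, whereas 0 of 34 glutamatergic neurons with Ccl2 had Ccl7. No astrocyte of any library had a UMI of the receptor Ccr2, so the 96 with Ccl2 did not differ from the others in this.

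Ccl3, an attractant of monocytes and T cells, gave few molecules, with 0, 0, 1, 2, 10 and 45 UMIs over all nuclei (0, 0, 0.0213, 0.0649, 0.249 and 1.54 CPM). Pooled counts were at least 18.7-fold higher in MCAO ipsi than in Sham and 20.6-fold higher than in MCAO contra (6.68 to 103), and sMCAO ipsi exceeded mMCAO ipsi 6.18-fold (3.07 to 13.8). Most of them were in microglia. This class held 0, 0, 0, 1, 4 and 37 UMIs, which is 40.0% of the Ccl3 UMIs of mMCAO ipsi and 82.2% of those of sMCAO ipsi. No astrocyte of MCAO ipsi had a Ccl3 UMI. The microglial level was 6.40 CPM in mMCAO ipsi and 32.3 CPM in sMCAO ipsi, a ratio of 5.05 (1.81 to 19.5). Macrophages of sMCAO ipsi held 6 UMIs (7.82 CPM), 0.242 times the microglial level (0.0836 to 0.579).

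Ccl4, a close relative of Ccl3 with a neighbouring gene, was already present in Sham, at 11, 6, 17, 7, 27 and 44 UMIs or 0.278, 0.193, 0.362, 0.227, 0.673 and 1.51 CPM. The ipsilateral libraries lay above the other 4, and pooled counts were 4.26-fold higher in MCAO ipsi than in Sham (2.48 to 7.71) and 3.32-fold higher than in MCAO contra (2.07 to 5.52). The edgeR log2 fold changes of 1.85 (SE 0.50, adjusted p = 0.0511) and 1.67 (adjusted p = 0.0886) did not pass the threshold. Microglia held 0, 0, 3, 4, 11 and 31 UMIs, or 40.7% and 70.5% of the Ccl4 UMIs of mMCAO ipsi and sMCAO ipsi, while glutamatergic neurons held 36.4% and 50% of the few UMIs of Sham L and Sham R. Ependymal nuclei held 2, 0, 1, 0, 4 and 3 UMIs (44.7, 0, 9.59, 0, 60.7 and 16.4 CPM). Unnamed clusters held 25.9% and 0% of the Ccl4 UMIs of mMCAO ipsi and sMCAO ipsi. Per microglial RNA the level was 20.9 and 47.0 CPM in MCAO contra and 17.6 and 27.0 CPM in MCAO ipsi, so the groups overlapped (ratio 0.775, 0.345 to 2.05). Microglia numbered 8 and 10 nuclei in Sham, 192 and 114 in MCAO contra and 696 and 761 in MCAO ipsi, and the part of their number in the Ccl4 total was not tested. Macrophages of sMCAO ipsi again held less than microglia, 9.13 CPM and 0.338 times the microglial level (0.125 to 0.781). Ccl3 and Ccl4 coincided in 5 of 19 microglia with Ccl3 in sMCAO ipsi (26.3%), against 1.89% of the others.

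**Figure D3:**
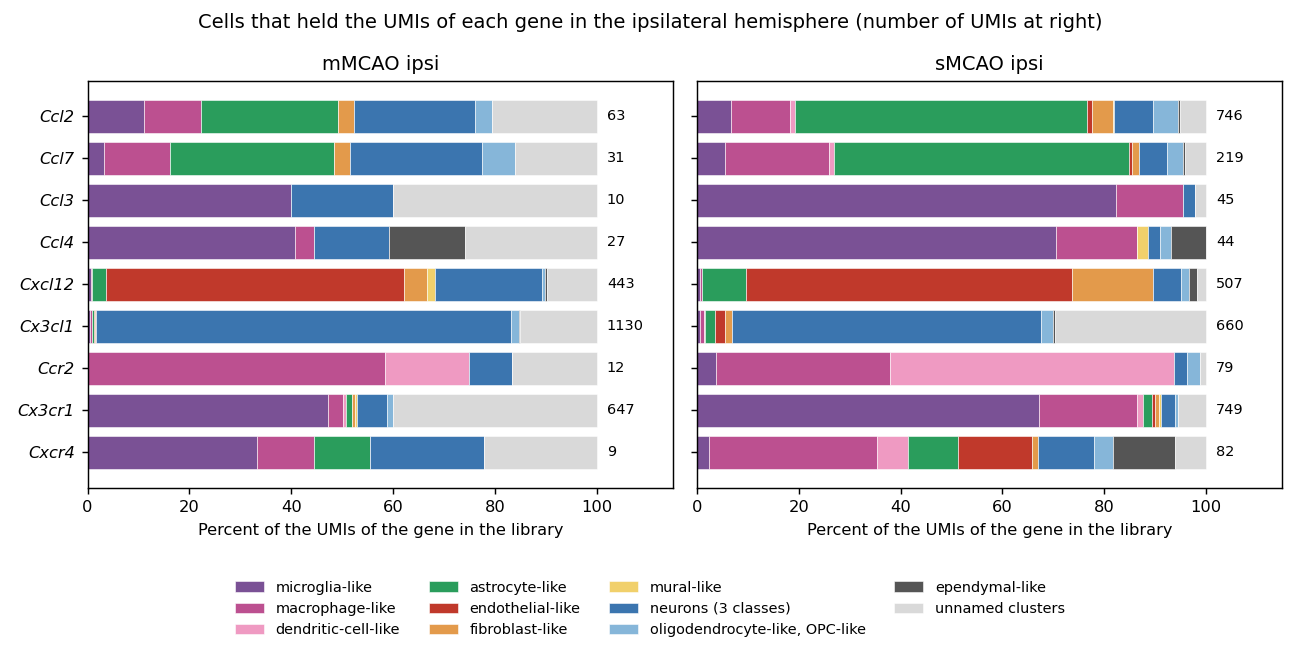
Percent of the UMIs of each gene that lay in each cell class, in mMCAO ipsi (left) and sMCAO ipsi (right), with the number of UMIs at the end of each bar. By UMI count Ccl2 and Ccl7 are led by astrocytes, Ccl4 and Cx3cr1 by microglia, Cxcl12 by endothelial nuclei, Cx3cl1 by neurons and Ccr2 by macrophages in mMCAO ipsi and dendritic cells in sMCAO ipsi. Ccl3 is led by microglia in sMCAO ipsi, while in mMCAO ipsi microglia and unnamed clusters tie at 4 of 10 UMIs each.

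Cx3cl1 was the member with the most UMIs and belonged to neurons. Over all nuclei it gave 1007, 837, 1802, 1257, 1130 and 660 UMIs (25.5, 26.9, 38.3, 40.8, 28.2 and 22.6 CPM), and glutamatergic neurons held 54.8%, 55.1%, 52.9%, 49.7%, 55.8% and 35.6% of them. The level in glutamatergic neurons was 24.3, 26.1, 38.9, 43.2, 26.7 and 22.6 CPM. In medium spiny neurons, the projection neurons of the striatum, it was 37.7, 38.2, 58.0, 51.0, 48.2 and 37.4 CPM, and in other GABAergic neurons 28.2, 24.8, 42.9, 40.7, 32.4 and 27.9 CPM. In all 3 classes both MCAO contra libraries lay above every Sham and MCAO ipsi library.

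In glutamatergic neurons Cx3cl1 was lower in MCAO ipsi than in MCAO contra, with a count ratio of 0.630 (0.579 to 0.684) and an edgeR log2 fold change of -0.69 (SE 0.11, adjusted p = 0.0121), where 4.06% of 14887 genes were called and 1.98% were lower. The difference was -0.36 (adjusted p = 0.145) in medium spiny neurons and -0.41 (adjusted p = 0.198) in other GABAergic neurons, and neither passed where 3.82% and 0.524% of genes did. Against Sham, MCAO ipsi did not pass in these classes, at -0.10 (adjusted p = 0.603) in glutamatergic neurons with a count ratio of 1.02 (0.928 to 1.11), where 6.78%, 5.17% and 2.06% of genes were called in glutamatergic, medium spiny and other GABAergic neurons. MCAO contra stood above Sham by count ratios of 1.61 (1.49 to 1.75), 1.45 (1.25 to 1.70) and 1.58 (1.34 to 1.85) in glutamatergic, medium spiny and other GABAergic neurons, with log2 fold changes of 0.59, 0.47 and 0.57 (adjusted p = 0.124, 0.172 and 0.113), none of them called. In that comparison 0.0269%, 0.215% and 0.164% of genes were called in the 3 classes.

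The glutamatergic call was lost without mMCAO contra (adjusted p = 0.106), without sMCAO contra (adjusted p = 0.122) and without sMCAO ipsi (log2 fold change -0.55, under the size limit), and when nuclei were assigned to classes 1 by 1 by a marker gate (-0.64, adjusted p = 0.133). The class joins all glutamatergic neurons, which were 14.2% of the nuclei of sMCAO ipsi against 33.1% to 44.7% in the other libraries. Whether the mix of these neurons stayed the same was not tested. The share of glutamatergic neurons with a Cx3cl1 UMI was 9.65%, 7.48%, 16.9%, 15.7%, 11.7% and 17.7%, at median depths of 3974.5, 2858.5, 4773, 3922, 4671 and 8579.5 UMIs. Thinned to 500 UMIs it was 1.16%, 1.21%, 1.73%, 2.21%, 1.27% and 1.29%, so the raw share was highest in the deep library of sMCAO ipsi and both MCAO contra libraries were highest at matched depth. Astrocytes held 7, 3, 5, 3, 5 and 13 Cx3cl1 UMIs, at 8.12 and 8.97 CPM in MCAO ipsi.

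**Figure D4:**
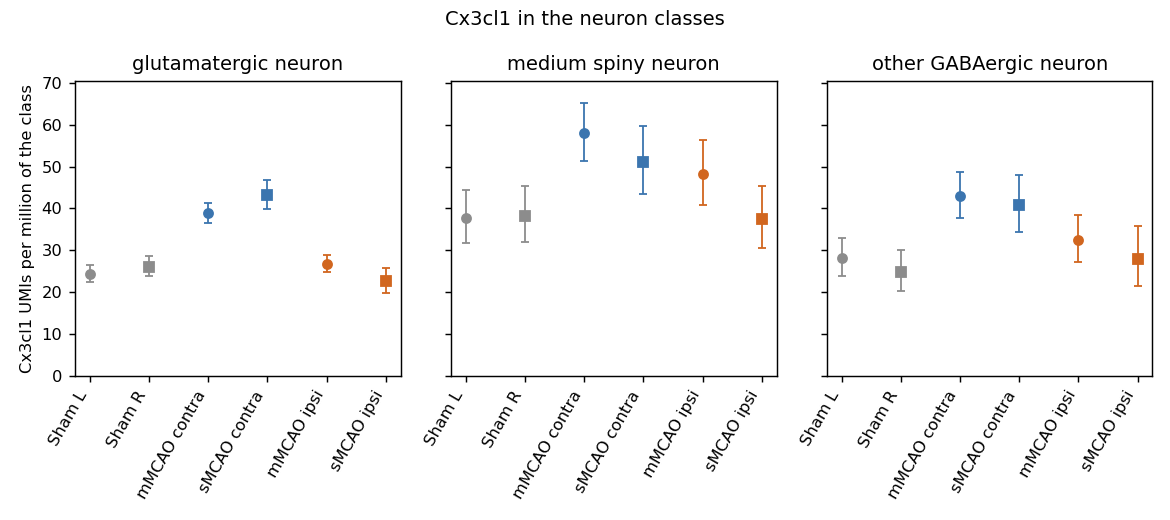
Cx3cl1 CPM in glutamatergic, medium spiny and other GABAergic neurons of the 6 libraries, with exact 95% counting intervals on 1 shared linear axis from 0. The 2 MCAO contra libraries (blue) lie above both Sham (grey) and both MCAO ipsi (orange) libraries in each class, for example at 38.9 and 43.2 CPM against 22.6 to 26.7 CPM in glutamatergic neurons.

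More of the Cxcl12 UMIs lay in the nuclei named endothelial than in all others together, and outside sMCAO ipsi these nuclei also carried mural markers at 2274 to 2939 CPM, beside endothelial markers at 2912 to 3351 CPM. Over all nuclei it gave 244, 204, 582, 307, 443 and 507 UMIs, or 6.17, 6.55, 12.4, 9.97, 11.0 and 17.4 CPM, and endothelial nuclei held 53.1% to 69.1% of these. Both Sham libraries lay below the other 4. MCAO ipsi was higher than Sham by a log2 fold change of 0.86 (SE 0.19, adjusted p = 0.0334), with a count ratio of 2.16 (1.93 to 2.42). Against MCAO contra it was 0.19 (adjusted p = 0.540), and MCAO contra against Sham was 0.66 (adjusted p = 0.479), and neither was called.

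Within endothelial nuclei the picture was different. Their Cxcl12 level was 1669, 2209, 2680, 3167, 2052 and 665 CPM, from 138, 110, 402, 163, 259 and 324 UMIs, so sMCAO ipsi lay below every other library. It was 0.32 times the level of mMCAO ipsi (0.27 to 0.38, 1 library each, no test), while mMCAO ipsi lay within the range of the other 4. The share of endothelial nuclei with a UMI was 61.3%, 75.9%, 57.6%, 76.2%, 56.2% and 25%, or 53.3%, 63.0%, 46.5%, 59.5%, 41.7% and 14.1% thinned, against at most 0.52% in microglia, which should lack it. The endothelial class held 75, 54, 99, 42, 96 and 276 nuclei, and the summed level of its 5 measured markers was 3011, 2912, 3180, 3031, 3351 and 3699 CPM. The 7 mural markers in these nuclei were lower in sMCAO ipsi, at 1024 CPM against 2274 to 2939 CPM elsewhere, and the part of this in the Cxcl12 level was not tested. For the joined vascular class (endothelial, mural and fibroblast) the levels were 969, 1370, 1302, 1006, 789 and 350 CPM, and edgeR gave log2 fold changes of -1.12 (SE 0.41, adjusted p = 0.232) against Sham and -1.08 (adjusted p = 0.399) against MCAO contra, in a class where 0.0% of genes were called in either comparison.

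Of the other classes, the nuclei named fibroblasts and the astrocytes held their most Cxcl12 UMIs in sMCAO ipsi, and glutamatergic neurons their fewest. The nuclei named fibroblasts, whose astrocyte markers exceeded their fibroblast markers as given above, held 2, 0, 10, 10, 20 and 81 UMIs (38.0, 0, 65.2, 84.9, 96.4 and 131 CPM) and 16.0% of the UMIs of sMCAO ipsi. Astrocytes held 2, 2, 0, 2, 12 and 44 UMIs (10.1, 13.3, 0, 8.31, 19.5 and 30.3 CPM), and glutamatergic neurons 66, 71, 104, 57, 84 and 25 (2.90, 4.01, 4.24, 3.94, 3.56 and 2.40 CPM). The astrocyte ratio of sMCAO ipsi to sMCAO contra was 3.65, with an interval (0.953 to 31.1) that includes 1.

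Ccr2, the receptor of Ccl2 and Ccl7, gave 0, 0, 1, 1, 12 and 79 UMIs, or 0, 0, 0.0213, 0.0325, 0.299 and 2.71 CPM. MCAO ipsi was at least 30.9-fold higher than Sham and 51.1-fold higher than MCAO contra (13.7 to 428), and sMCAO ipsi exceeded mMCAO ipsi 9.04-fold (4.90 to 18.2). The edgeR test called it against Sham (log2 fold change 8.52, SE 2.04, adjusted p = 0.0472) and not against MCAO contra (5.45, adjusted p = 0.0818).

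The receptor lay in myeloid cells, which held 75% of the Ccr2 UMIs of mMCAO ipsi and 93.7% of those of sMCAO ipsi. Dendritic cells had 2 and 44 UMIs in 24 and 119 nuclei (125 and 386 CPM), and a UMI was found in 8.33% and 25.2% of them (8.33% and 13.4% thinned). Macrophages held 7 and 27 UMIs (60.6 and 35.2 CPM), with a ratio of 0.581 between the severities whose interval (0.247 to 1.58) includes 1, while their number went from 165 to 827 nuclei. In sMCAO ipsi dendritic cells exceeded macrophages 11.0-fold (6.64 to 18.4), and macrophages exceeded microglia, which had 3 UMIs (2.62 CPM), 13.5-fold (4.14 to 69.3). Astrocytes, vascular cells, oligodendrocyte precursors (OPC) and ependymal cells had no Ccr2 UMI in any library.

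Cx3cr1, the fractalkine receptor, gave 60, 83, 249, 163, 647 and 749 UMIs, or 1.52, 2.67, 5.30, 5.29, 16.1 and 25.7 CPM, with no overlap between the 3 groups. MCAO ipsi was higher than Sham (log2 fold change 3.03, SE 0.29, adjusted p = 0.00755) and than MCAO contra (1.83, SE 0.26, adjusted p = 0.0257), with count ratios of 9.95 (8.37 to 11.9) and 3.80 (3.41 to 4.26). The call against MCAO contra was lost with only MCAO ipsi and MCAO contra fitted. It was also lost when any single Sham or MCAO contra library was left out. MCAO contra against Sham was 1.20 (adjusted p = 0.473), with a count ratio of 2.62 (2.16 to 3.19). Within each severity the ipsilateral to contralateral ratio was 3.05 (2.63 to 3.54) in mMCAO and 4.85 (4.09 to 5.78) in sMCAO.

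Per microglial RNA, Cx3cr1 did not follow this order. The microglial level was 212, 344, 716, 447, 488 and 439 CPM, from 1, 2, 103, 38, 305 and 503 UMIs, so that Sham rests on 3 UMIs and the MCAO groups overlapped. Pooled microglia of MCAO ipsi held 0.741 times the level of MCAO contra (0.619 to 0.892), and sMCAO ipsi 0.90 times that of mMCAO ipsi (0.78 to 1.04). In the whole myeloid class, which includes macrophages and dendritic cells, edgeR gave a log2 fold change of -0.64 (SE 0.30, adjusted p = 0.506) for MCAO ipsi against MCAO contra, where 0.0% of 7865 genes were called. The share of microglia with a UMI was 12.5%, 20%, 39.6%, 29.8%, 31.6% and 45.2%, or 12.5%, 20%, 32.3%, 19.3%, 22.3% and 19.8% thinned, against 0.15% to 1.11% of glutamatergic neurons unthinned. Over all nuclei the 13 myeloid markers summed to 24, 31, 51, 59, 185 and 386 CPM, and the part of myeloid cell numbers in the Cx3cr1 total was not tested.

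Macrophages carried Cx3cr1 at a lower level than microglia, 173 and 189 CPM in mMCAO ipsi and sMCAO ipsi from 20 and 145 UMIs, or 0.431 times the microglial level in sMCAO ipsi (0.356 to 0.519). Because of their number they held 3.1% of the Cx3cr1 UMIs of mMCAO ipsi and 19.4% of those of sMCAO ipsi. Unnamed clusters held 71.7% and 73.5% of the UMIs of Sham L and Sham R, 42.6% and 62.6% of those of MCAO contra, and 40.0% and 5.5% of those of the moderate and severe infarcted hemispheres, and 2 of these clusters (S11 and S21) had Cx3cr1 among their 10 leading genes beside markers of another class. The microglial levels above therefore leave out many Cx3cr1 molecules of the Sham and contralateral libraries. Of the macrophages of sMCAO ipsi with Cx3cr1, 8 of 119 also had Ccr2 (6.72%), against 1.84% of those without.

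**Figure D5:**
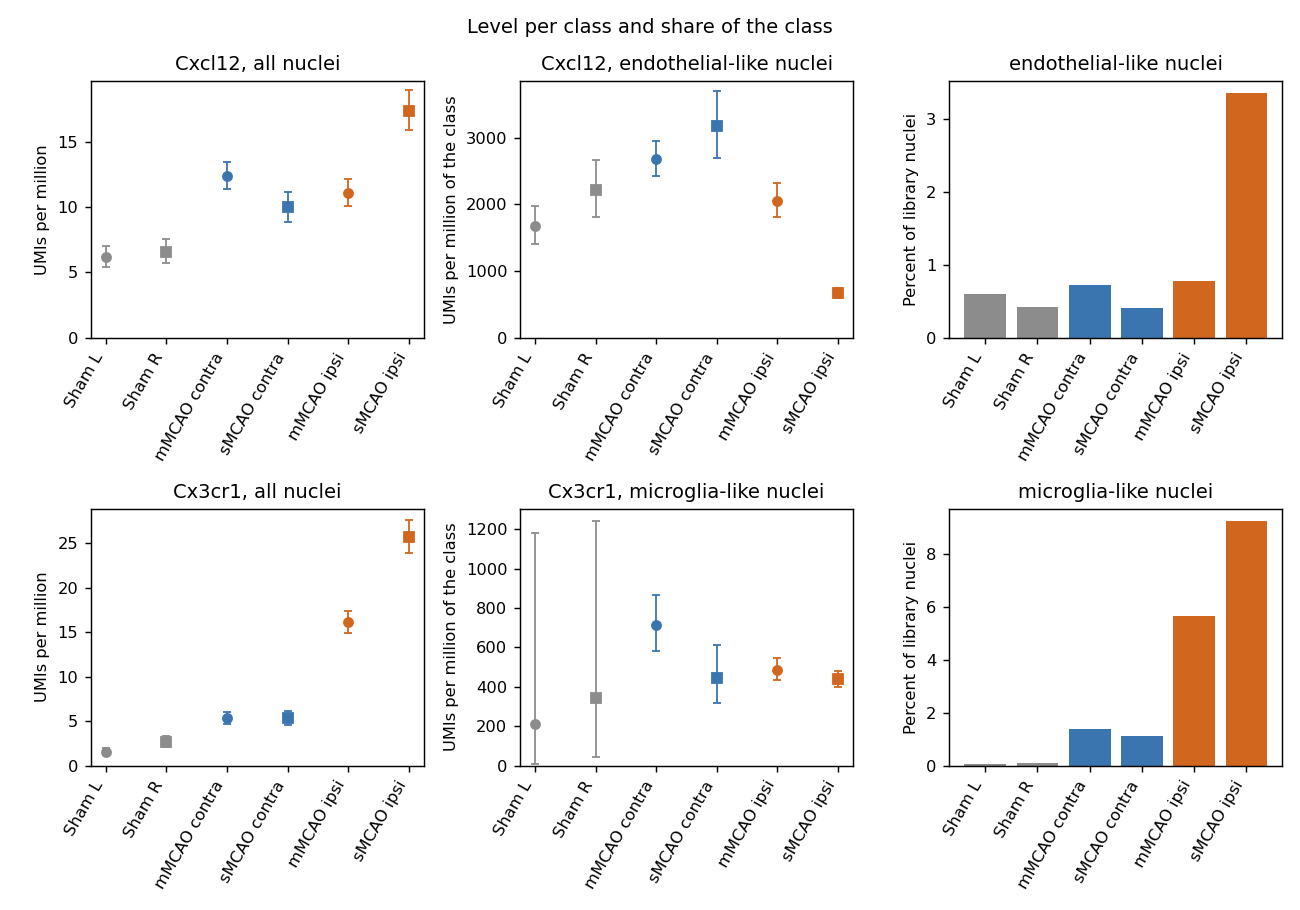
Cxcl12 (top) and Cx3cr1 (bottom) as CPM over all nuclei (left), CPM in the endothelial-like class for Cxcl12 and the microglia-like class for Cx3cr1 (middle) and percent of each library's nuclei in that class (right), with exact 95% counting intervals on the points. In sMCAO ipsi the totals are highest, at 17.4 and 25.7 CPM, while the class levels of 665 and 439 CPM are not, and both classes take their largest share of nuclei there.

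Cxcr4, the receptor of Cxcl12, gave 2, 3, 4, 5, 9 and 82 UMIs, or 0.0506, 0.0964, 0.0851, 0.162, 0.224 and 2.81 CPM. Most of these UMIs were in sMCAO ipsi, which exceeded mMCAO ipsi 12.5-fold (6.28 to 28.3), and pooled MCAO ipsi exceeded Sham 18.6-fold (7.67 to 58.5) and MCAO contra 11.4-fold (5.72 to 25.6). Cxcr4 did not reach the count filter with all 6 libraries. It was called over all nuclei against both groups without mMCAO ipsi, and against Sham alone with no count filter. Unlike Ccr2 it was found in several cell classes of sMCAO ipsi. Macrophages held 27 UMIs there (35.2 CPM, 32.9% of the total) against 1 in mMCAO ipsi, endothelial nuclei 12 (24.6 CPM) against 0 in each of the other 5 libraries, ependymal nuclei 10 (54.5 CPM), astrocytes 8 (5.52 CPM), other GABAergic neurons 7 (3.10 CPM) and dendritic cells 5 (43.8 CPM). The macrophage CPM ratio of sMCAO ipsi to mMCAO ipsi was 4.07, with an interval (0.671 to 167) that includes 1. For endothelial nuclei this ratio was at least 1.04, taking 3 UMIs as the floor. A difference in level between the severities was therefore not resolved in either class.

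A Cxcr4 UMI was found in 3.14% of macrophages, 3.62% of endothelial nuclei and 8.99% of ependymal nuclei of sMCAO ipsi, or 1.69%, 1.81% and 4.49% thinned. Microglia had 3 and 2 UMIs in mMCAO ipsi and sMCAO ipsi and medium spiny neurons 0 in both, and macrophages exceeded microglia 20.2-fold in sMCAO ipsi (5.07 to 175). In glutamatergic neurons the share was 0.17% of sMCAO ipsi nuclei and 0% thinned. Of the myeloid nuclei of sMCAO ipsi with Ccr2, 6 of 54 had Cxcr4 (11.1%), against 1.63% of the others.

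The other genes of the chemokine system, 68 of a list of 72 that were in the files, were followed as context, a list drawn up with earlier results known. Of 32 tested over all nuclei, 11 were higher and 2 lower in MCAO ipsi than in Sham, 8 were higher and 0 lower than in MCAO contra, and 0 were called in MCAO contra against Sham. Of all 17040 genes, 13.1% were called in MCAO ipsi against Sham (10.0% higher) and 4.81% against MCAO contra (3.87% higher). In MCAO contra against Sham 0.0% were called. Their median log2 fold changes were 0.53, 0.38 and 0.14. Among the other ligands, Cxcl1, a neutrophil attractant, was higher against Sham by 7.34 and Cxcl16 by 2.80, while Ccl27 was lower by a log2 fold change of -0.68. Ackr1, Ackr2 and Ackr3, receptors that bind chemokines without G protein signalling, were not called over all nuclei.

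Among the proteases that shed or cleave chemokines, Mmp9 (2.65) and Mmp2 (2.14) were higher against Sham, and Adam10 and Adam17, which shed Cx3cl1, were not called. Of the signalling genes below the receptors, Rgs1 (7.201), Rac2 (3.90), Vav1 (3.77), Pik3cg (3.00), Pik3r5 (2.61) and Plcb2 (2.47), most of them leukocyte genes, were higher against Sham, and the receptor kinase Grk3 was lower (-0.89). Grk3 was also lower in glutamatergic neurons (-0.94 against Sham and -0.65 against MCAO contra) and against Sham in medium spiny neurons (-1.44) and oligodendrocytes (-2.19). Of the other genes called in single classes, Mmp9 (2.38) and Pik3r5 (2.20) were higher in glutamatergic neurons and in astrocytes Elmo1 was lower (-2.36), while Gnai2 was higher in oligodendrocytes (1.67), all against Sham. Against MCAO contra, Pik3r5 was higher in glutamatergic neurons (2.35), and the arrestin gene Arrb1 was lower in astrocytes (-0.97) and OPC (-1.12). In these classes 17.7% (astrocytes) and 7.44% (oligodendrocytes) of genes were called against Sham, and 13.5% (astrocytes) and 16% (OPC) against MCAO contra.

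Across the 52 sums of a class in a library, each gene's log2 profile was set beside those of all genes as a description, since the sums share libraries and depth. The profile most like that of Ccl2 was Ccl7 (Pearson r = 0.92), followed by Hspb1 (0.83), Lsp1 (0.82), Timp1 (0.80) and Socs3 (0.79). For Cx3cl1 the nearest were Nsg1 and Rgs8 (0.75 each), and for Cx3cr1 the nearest genes with a symbol were Inpp5d (0.91), Arhgap45 and Epsti1 (0.89 each). The nearest named profiles to Cxcl12 were Htra3 (0.89), Zic4, Igf1r and Ifitm3 (0.88 each). Ccl3, Ccl4, Ccr2 and Cxcr4 had under 100 UMIs in these sums and were left out.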

How the data were processed

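Raw UMI counts per gene and nucleus of 6 libraries were analysed as deposited. The authors had made these counts with Cell Ranger 7.0.0 on mRatBN7.2 with intronic reads included, all libraries on 1 flow cell, and their later removal of ambient RNA and doublets is not in the counts, so free RNA in the suspension adds UMIs to every class. Related genes such as Ccl2 with Ccl7 and Ccl3 with Ccl4 can lose reads that match both, and how much was not tested.

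Nuclei with at least 500 UMIs, 250 to 5000 genes and at most 5% mitochondrial UMIs were kept, and the 5% with the highest simulated-doublet score were removed per library. Clustering used scanpy 1.11.5 (3000 variable genes, 30 components, 15 neighbours, Leiden resolution 1 in 2 levels), without integration of libraries. A cluster was named where its mean marker score led by at least 1.5 with a score of at least 3, a limit set after the clusters were seen, and at least 3 detected markers. The members, marker lists and gene lists were chosen with earlier results of these data known. UMIs were summed per library and class and tested with edgeR 4.0.16 (TMM, filterByExpr, quasi-likelihood, 3 groups in 1 fit, Benjamini-Hochberg over all genes tested) in classes with at least 20 nuclei in every library of the groups compared; the myeloid fit left out Sham. Contralateral and ipsilateral libraries of 1 severity came from the same rats per the labels, and their deviations from the group means correlated at r = 0.1643 over 14039 genes. Single libraries were compared by ratios with exact 95% intervals from Poisson counts, and shares with Clopper-Pearson intervals. These intervals, and the floor of 3 counts for a value of 0, cover counting error only. Shares were also taken after thinning nuclei to 500 UMIs. Profiles over class sums used log2(CPM + 1) and genes with at least 100 UMIs.

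Genes named are the 9 members, and from the other chemokine-system genes those called in a class or among the 3 with the most UMIs of their sub-list, except 1 gene that is not reported here. Of these, Ccl27, Cxcl14, Ccr10, Cxcr6, Dpp4, Gnai1 and Elmo1 gave 4585, 372, 124, 45, 253, 16930 and 62726 UMIs. Alternatives were RLE normalization, no count filter, fits of only the groups compared, the rat pool as a block, each library left out, DESeq2 1.42.0, doublets kept, Leiden resolution 2, and a per-nucleus marker gate (at least 3 UMIs of at least 2 markers, 3 times any other class). The edgeR step was tested on simulated counts. Promoter windows of 6 of the 9 members were in the RefSeq table of GRCr8.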

Additional observations from a re-analysis of the deposited data

Results flagged for a closer look

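Over all nuclei the ratios of Cxcl12 in the 2 severities lay on opposite sides of 1, and only the severe one had an interval that leaves out 1. The ipsilateral to contralateral ratio of CPM was 0.892 (0.787 to 1.01) in moderate MCAO, from 443 against 582 UMIs, and 1.742 (1.51 to 2.01) in severe MCAO, from 507 against 307 UMIs. Each ratio rests on 1 library a side, and the difference between them was not tested. In the joined vascular class the ratio was below 1 in both, at 0.606 (0.519 to 0.706) and 0.348 (0.290 to 0.418). Endothelial nuclei numbered 96 against 99 in moderate and 276 against 42 in severe MCAO, and their part in these totals was not tested.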

How the results depend on the processing

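Of 564 log2 fold changes of members recomputed under alternatives, 478 kept their direction and side of the threshold, 37 lost and 32 gained the call, and 17 changed sign, none of them called. Only pairs of a gene and a class called in the main fits could lose a call. These were 5 of 14 pairs against Sham, 3 of 15 against MCAO contra and 0 of 14 in MCAO contra against Sham. The 478 therefore include many pairs called in neither fit. The 5 members called in MCAO ipsi against Sham became 9 with no filter on low counts and 1 with only the 2 groups compared, and ranged from 0 to 9 with 1 library left out. The 3 members of MCAO ipsi against MCAO contra became 7 with no filter, 1 with only the 2 groups, 5 with the rat pool as a replicate block and 5 by DESeq2, and ranged from 0 to 9 with 1 library left out. The 0 members of MCAO contra against Sham became 2 with only the 2 groups and 1 by DESeq2 (0 to 2 with 1 library left out), and the 0 of the myeloid class became 1 with no filter (0 to 2). The block was fitted only for MCAO ipsi against MCAO contra, and it left the myeloid count at 0. RLE normalization, Leiden resolution 2, doublets kept and the marker gate left these counts within 1.5 times, though with doublets kept Ccl7 against MCAO contra was lost (adjusted p = 0.0517). The cause of these shifts was not tested, beyond the fewer libraries in some fits. The share of all genes called is not given for these fits, so the shifts cannot be set against those of other genes.

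Changes of sign concerned Ccl4, Cx3cl1 and Cxcl12, and not all of these log2 fold changes stayed near 0. With 1 library left out, Ccl4 over all nuclei in MCAO contra against Sham ranged from -0.234 to 0.487. Cx3cl1 in MCAO ipsi against Sham ranged from -0.273 to 0.0356 in glutamatergic neurons (0.0235 by the marker gate), from -0.109 to 0.281 in medium spiny and from -0.0279 to 0.274 in other GABAergic neurons. Cxcl12 in MCAO ipsi against MCAO contra ranged from -0.0259 (without sMCAO ipsi) to 0.376 over all nuclei. In glutamatergic neurons Cxcl12 ranged from -0.0614 to 0.370 in MCAO contra against Sham (-0.486 by the gate) and from -0.625 to 0.0056 in MCAO ipsi against Sham, and was 0.140 by the gate against MCAO contra. Over all settings Cxcl12 in these neurons ranged from -0.789 to 0.140 in MCAO ipsi against MCAO contra. In vascular nuclei in MCAO contra against Sham Cxcl12 was 0.0144 with no filter, 0.150 with doublets kept, 0.709 by the gate and 0.0658 at resolution 2, and ranged from -0.229 to 0.216 with 1 library left out. Depth limits Ccl3, Ccr2 and Cxcr4, with 58, 93 and 105 UMIs over all libraries, and the microglial values of Sham, from 8 and 10 nuclei.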
